A study of Mus musculus with 22 samples.

Results

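The 10 genes here encode subunits, regulators or targets of the mTOR kinase complexes: Mtor, Rptor, Rictor, Mlst8, Rheb, Tsc1, Tsc2, Akt1s1, Eif4ebp1 and Irs1. They were chosen by name from the count table of the series, in which each of the 10 matched 1 row of 55401 gene identifiers. RNA was sequenced from mouse embryonic fibroblasts (MEFs), primary cells grown from mid-gestation C57BL/6 embryos after the head and viscera were taken off, which were passaged at atmospheric oxygen and harvested at passage 3 (early) or passage 8 (late). The S6K1 set held 4 early wild-type (WT), 4 late WT and 3 late S6K1 knockout (KO) libraries. The S6K1/S6K2 set held 4 early WT, 4 late WT and 3 late double knockout (DKO) libraries, the last lacking S6K1 and S6K2 (genes Rps6kb1 and Rps6kb2). S6K1 WT and KO embryos were littermates from heterozygous mothers, whereas DKO embryos came from crosses of S6K2-deficient mice and their WT controls from WT mothers, so that genotype and litter cannot be told apart in the DKO comparison. No early KO or DKO library was analysed here, and the labels do not say which libraries shared a litter, so that p-values measure the spread between these libraries.

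mTOR is a protein kinase that couples growth signals and nutrients to protein synthesis. It forms mTORC1 with Raptor (Rptor), the subunit that recruits substrates, and mTORC2 with Rictor, and mLST8 (Mlst8) belongs to both complexes. The small GTPase RHEB switches mTORC1 on at the lysosome, and the TSC complex of TSC1 and TSC2 switches RHEB off. PRAS40 (Akt1s1) is an inhibitory partner of mTORC1, 4E-BP1 (Eif4ebp1) is a repressor of cap-dependent translation that mTORC1 phosphorylates, and IRS1 is the insulin receptor adaptor that S6K1 phosphorylates as part of a negative feedback. These proteins are controlled largely by phosphorylation and location, which RNA-seq does not measure.

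In the coordinates of the mouse build GRCm38 (mm10), from RefSeq, Mtor lies at chr4:148448582-148557685, Rptor at chr11:119602905-119899591, Rictor at chr15:6708349-6800401 and Mlst8 at chr17:24473550-24479114. Rheb lies at chr5:24802823-24842361, Tsc1 at chr2:28640993-28691172 and Tsc2 at chr17:24595816-24632676. Akt1s1 lies at chr7:44849224-44855421, Eif4ebp1 at chr8:27260327-27275656 and Irs1 at chr1:82233105-82291439. All 10 are protein-coding genes. The 3′ end of Mlst8 overlaps Bricd5 over 1922 bases, that of Tsc2 overlaps Pkd1 over 699 bases, Angptl7 lies inside Mtor, and Rptoros lies inside Rptor. The strand setting of the counting was not given in the sources used here, so reads from these overlaps may be shared.

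Total counts ran from 10742454 to 17314832 per library. Levels are given as CPM, counts divided by the library size after scaling by the trimmed mean of M values (TMM), and 3 counts correspond to 0.173 to 0.279 CPM before that scaling. Every member had at least 138 counts in every library. Rps6kb1 was at 55.6 to 75.3 CPM in late WT of the S6K1 set and at 14.2 to 23.1 CPM in KO, and in the S6K1/S6K2 set it was at 64.7 to 87.5 CPM in late WT and 20.4 to 28.3 CPM in DKO. Rps6kb2 was at 11.2 to 16.4 CPM in late WT and 0.48 to 1.36 CPM in DKO. The knockout libraries were therefore below every late WT library of their set for each deleted gene. The summed level of 8 fibroblast markers was 19290 to 39216 CPM. That of 16 macrophage markers was 468 to 1976 CPM in early WT of both sets, 5354 to 12710 CPM in late WT, 3547 to 4832 CPM in KO and 903 to 3409 CPM in DKO, and none of the 16 was at 0 throughout a group. That of 6 markers of cycling cells was 381 to 599 CPM in early WT, 274 to 535 CPM in late WT and 193 to 321 CPM in KO of the S6K1 set, and 252 to 383, 177 to 214 and 114 to 129 CPM in early WT, late WT and DKO of the S6K1/S6K2 set. The part of any of these lists in the results was not tested. The 4 skeletal muscle markers summed to at most 0.662 CPM. The 4 endothelial markers summed to 2.12 to 11.5 CPM and the 4 epithelial markers to 1.09 to 51.3 CPM. With passage, 1 endothelial marker was lower in the S6K1 set and 1 epithelial marker in the S6K1/S6K2 set, of 2 tested in each list. Their part in the results was not tested either. In bulk RNA, fewer cells of a type and less RNA per cell cannot be told apart.

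In early WT of the S6K1 set, libraries 2 and 4 stood apart from libraries 1 and 3. Over 9105 genes with a mean of at least 10 CPM, the root mean square difference was 0.37 to 0.39 on the log2 scale within the pairs and 0.61 to 0.76 between them, against 0.28 to 0.56 among early WT libraries of the S6K1/S6K2 set. By Xist and Y-linked genes, libraries 2 and 4 came from female embryos and libraries 1 and 3 from male embryos. Late WT libraries 1, 2 and 4 of that set were female and library 3 male, and the 3 KO libraries were male. In the S6K1/S6K2 set, early WT 1 and 4, late WT 4 and DKO 1 and 3 were female. Calls for passage in the S6K1 set are given with and without the pair that stood apart.

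**Figure D1:**
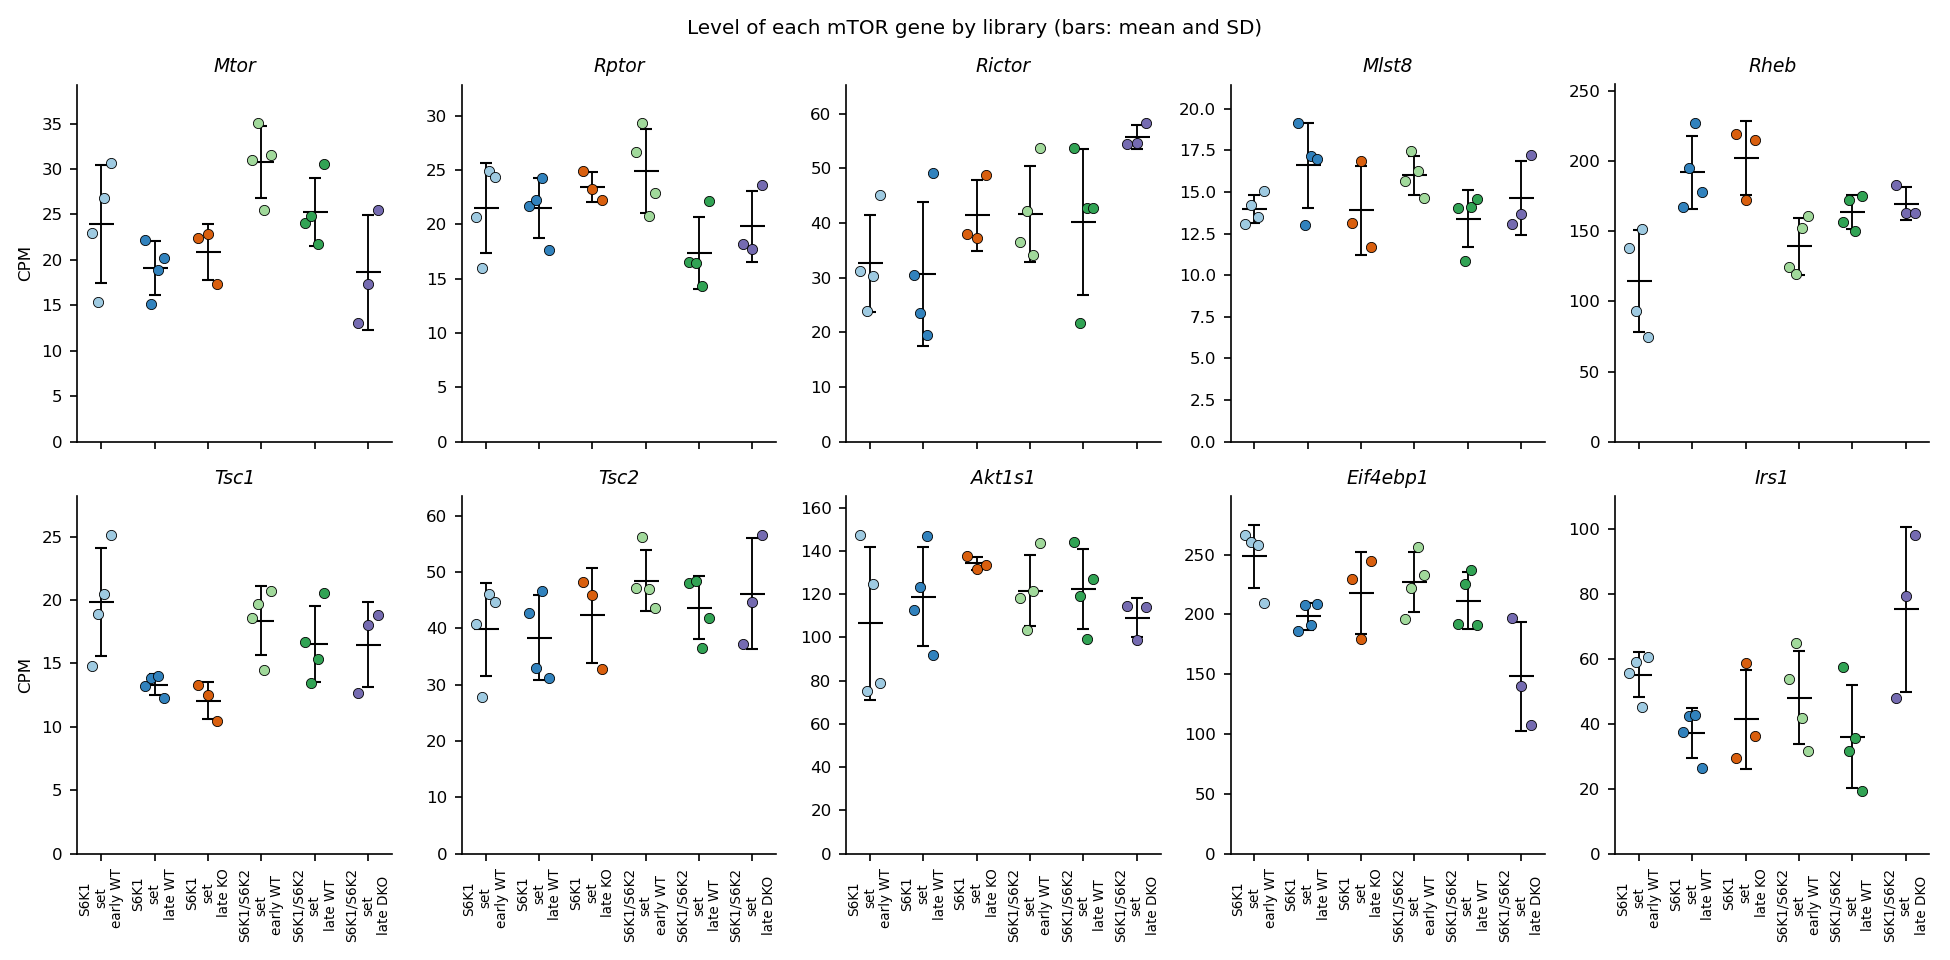
Level of each of the 10 genes (y axis, CPM from 0) in the 22 libraries, by group (x axis); points are libraries and bars the mean and SD. In the S6K1 set Rheb lies at 74.4 to 152 CPM in early WT and at 167 to 227 CPM in late WT, and the early libraries spread widely for Rheb and Akt1s1.

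The RNA levels of the members differed widely. Per kilobase of exon, a scale that allows for exon length, the median over 22 libraries was highest for Eif4ebp1, at 213 CPM per kilobase. Eif4ebp1 exceeded Akt1s1 in 22 of 22 libraries. Akt1s1 had a median of 37.6 CPM per kilobase and Rheb one of 29.4 CPM per kilobase. By this median, Eif4ebp1, Akt1s1 and Rheb were above all other members, and Rheb exceeded Tsc2 in 22 of 22 libraries. Tsc2, the GTPase-activating subunit of the TSC complex, followed at 7.03 CPM per kilobase. Irs1 had 4.80, Rictor 4.31 and Mlst8 4.29 CPM per kilobase. These neighbours could not be ordered firmly, since Irs1 exceeded Rictor in 15 of 22 libraries and Rictor exceeded Mlst8 in 11 of 22. Mtor had 2.26, Rptor 1.65 and Tsc1 1.27 CPM per kilobase, and Rptor exceeded Tsc1 in 15 of 22 libraries. Per kilobase, the level of Tsc1 was below that of its partner Tsc2 throughout. Exon lengths came from an annotation of an older build, NCBIM37. They cover all annotated exons of a gene, not the transcripts expressed here. Before division, Mtor and Rptor had medians of 22.9 and 22.2 CPM, so their order rests largely on these lengths.

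**Figure D2:**
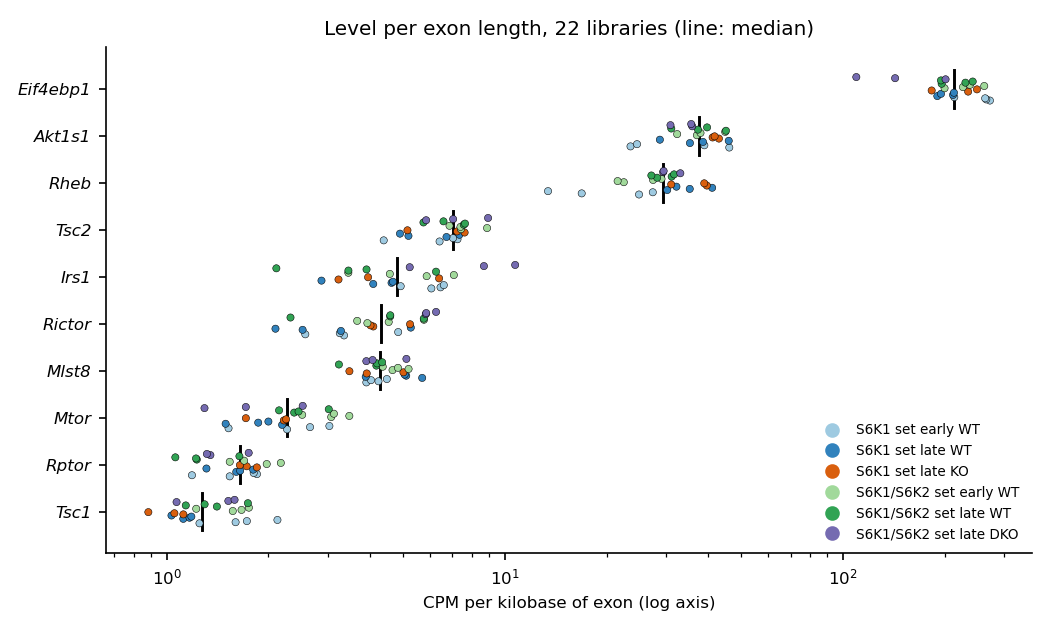
CPM per kilobase of exon (x axis, log scale) of each gene in 22 libraries, coloured by group, with the median as a line. Eif4ebp1 lies apart at 110 to 272 CPM per kilobase, and Irs1, Rictor and Mlst8 overlap.

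The members also differed in how far replicate libraries spread. The pooled SD within groups was smallest for Mlst8, at 0.19 on the log2 CPM scale, and 0.22 for Eif4ebp1. It was largest for Irs1, at 0.46, and Rictor, at 0.41. Irs1 ranged 5.08-fold over the 22 libraries and Mlst8 1.76-fold, so a difference between groups had to be larger in Irs1 than in Mlst8 to pass the test.

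The first comparison asks how WT MEFs of the S6K1 set changed between passage 3 and passage 8. By the edgeR quasi-likelihood test with Benjamini-Hochberg adjustment over 14132 genes, 2 of 10 members passed an adjusted p of 0.05, against 12.9% of all genes. Rheb rose, as did 6.96% of all genes, and Tsc1 fell, as did 5.97%. The median log2 fold change of the members was -0.08, beside -0.04 over all genes.

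Rheb, the activator of mTORC1, was at 138, 93.6, 152 and 74.4 CPM in early WT libraries 1 to 4. In late WT libraries 1 to 4 it was at 167, 195, 227 and 178 CPM. Every late library was above every early one, and the lowest early values were those of libraries 2 and 4. The mean was 114 ± 36.5 CPM (SD, n = 4) in early and 192 ± 26.2 CPM (SD, n = 4) in late WT, with a log2 fold change of 0.74 (SE 0.22; edgeR adjusted p = 0.041).

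Tsc1, the stabilising subunit of the TSC complex, was at 14.8, 18.9, 20.4 and 25.2 CPM in early WT libraries 1 to 4. In late WT libraries 1 to 4 it was at 13.3, 13.8, 14.0 and 12.2 CPM. The groups did not overlap, although early library 1 lay just above the highest late library. The mean was 19.8 ± 4.28 CPM (SD, n = 4) in early and 13.3 ± 0.80 CPM (SD, n = 4) in late WT, with a log2 fold change of -0.57 (SE 0.17; edgeR adjusted p = 0.048). Tsc2 was at 39.8 ± 8.28 CPM (SD, n = 4) in early and 38.3 ± 7.50 CPM (SD, n = 4) in late WT, with a log2 fold change of -0.06 and a 95% interval of -0.50 to 0.38.

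Neither call held without early libraries 2 and 4, when 0 of 10 members passed. The log2 fold change of Rheb was then 0.40 (adjusted p = 0.13) and that of Tsc1 -0.40 (adjusted p = 0.17). With that pair as the sole early libraries, the log2 fold change was 1.19 for Rheb (adjusted p = 0.0018) and -0.72 for Tsc1 (adjusted p = 0.018), and Akt1s1 passed as well, at 0.63 (adjusted p = 0.028). Within female embryos the log2 difference of mean log2 CPM was 1.11 for Rheb and -0.74 for Tsc1, from 3 late and 2 early libraries. Within males, with 1 late and 2 early libraries, it was 0.65 for Rheb and -0.31 for Tsc1. The direction was thus shared by the sexes, but sex and the split of the early libraries cannot be told apart here. With the mean log2 CPM of Y-linked genes as a covariate, Rheb had a log2 fold change of 0.96 (adjusted p = 0.0011) Tsc1 one of -0.60 (adjusted p = 0.029), and Akt1s1 passed at 0.39 (adjusted p = 0.049).

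**Figure D3:**
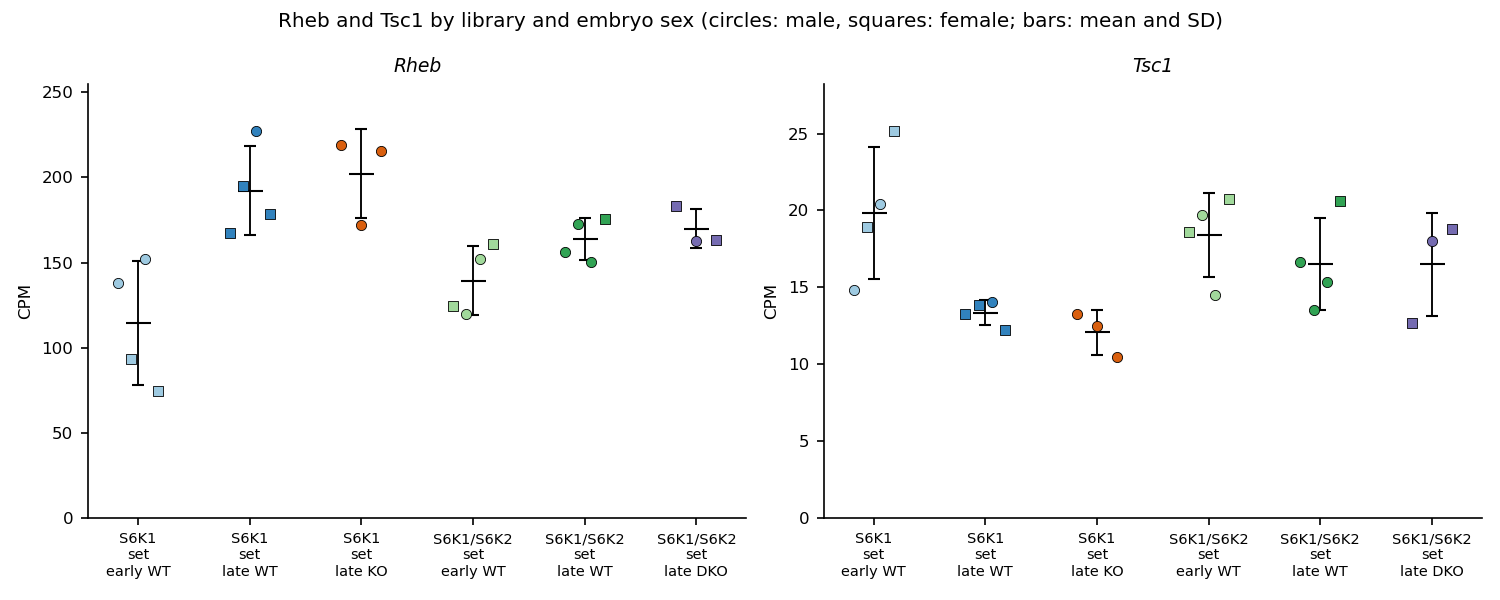
CPM (y axis, from 0) of Rheb and Tsc1 in each library by group, with circles for male and squares for female embryos and bars for the mean and SD. In early WT of the S6K1 set both female libraries have less Rheb (74.4 and 93.6 CPM) than the male ones (138 and 152 CPM). In early WT of the S6K1/S6K2 set the sexes overlap, with females at 125 and 161 CPM and males at 119 and 152 CPM.

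Leaving out a single library showed how near the threshold both calls lay. Rheb kept its call without early WT 1 (adjusted p = 0.031) or early WT 3 (adjusted p = 0.017). It lost it without early WT 2 (0.106) or 4 (0.081), and without late WT 1 (0.053), 2 (0.086), 3 (0.094) or 4 (0.060), all as adjusted p. Tsc1 kept its call without early WT 1 (adjusted p = 0.023). It lost it without early WT 2 (0.076), 3 (0.109) or 4 (0.116), and without late WT 1 (0.095), 2 (0.092), 3 (0.102) or 4 (0.102), all as adjusted p. The log2 fold change stayed between 0.58 and 0.94 for Rheb and between -0.66 and -0.44 for Tsc1. Over all 17 alternatives for this comparison, Rheb passed in 8 and Tsc1 in 5, with the direction kept in each.

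The promoters of Rheb and Tsc1 are shown because these were the 2 members that passed. RefSeq promoters were at hand for 9 of the 10 members, 1 window of 300 bases each, running from 250 bases before to 50 bases after a start site that RefSeq lists for the gene on GRCm38.p6. The start site need not be the outer edge of the gene as given above, and the Tsc1 window begins 10 bases before that edge. That of Rheb is chr5:24842312-24842611 on the minus strand and that of Tsc1 chr2:28640983-28641282 on the plus strand. Capitals mark matches, on either strand, to CACGTG (E-box), GGGCGG (GC box), CCAAT or TATAAA, none of which overlapped another in these windows.
Rheb: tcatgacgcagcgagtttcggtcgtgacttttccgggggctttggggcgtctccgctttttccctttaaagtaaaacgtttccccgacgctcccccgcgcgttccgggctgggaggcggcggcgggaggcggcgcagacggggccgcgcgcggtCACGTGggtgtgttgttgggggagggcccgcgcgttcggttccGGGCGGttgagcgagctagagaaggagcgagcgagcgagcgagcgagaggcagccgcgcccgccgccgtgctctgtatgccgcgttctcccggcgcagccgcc
Tsc1: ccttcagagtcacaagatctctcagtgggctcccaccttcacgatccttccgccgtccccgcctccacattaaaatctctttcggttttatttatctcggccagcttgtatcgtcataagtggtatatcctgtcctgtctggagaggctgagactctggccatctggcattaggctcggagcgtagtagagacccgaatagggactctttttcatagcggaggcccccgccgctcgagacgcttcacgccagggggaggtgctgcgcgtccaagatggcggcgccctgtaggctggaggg

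The Rheb promoter held 1 match to CACGTG and 1 to GGGCGG, and the Tsc1 promoter held none of the 4 motifs. CACGTG also occurred in the promoter of Irs1, which makes 2 of 9 members, beside 7.15% of all 32851 promoters. GGGCGG occurred in 5 of 9 members and 35.7% of all promoters, CCAAT in 2 of 9 and 37.4%, and TATAAA in 0 of 9 and 13.6%. The GC content of the Rheb window was 70.0% and that of the Tsc1 window 57.3%, against a median of 52.7% over all promoters. These matches describe the letters of the windows, and no binding was measured.

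Of the remaining members, Eif4ebp1 and Irs1 also did not overlap between early and late WT of the S6K1 set. Thus 4 of 10 members did not overlap in this comparison, against 18.3% of all genes. Eif4ebp1, the translational repressor, was at 267, 260, 258 and 209 CPM in early WT libraries 1 to 4. In late WT it was at 187, 207, 191 and 209 CPM. The lowest early and the highest late library differed by less than 1 CPM, and the log2 fold change was -0.33 (SE 0.14; edgeR adjusted p = 0.14). Irs1 was at 55.5, 59.0, 45.0 and 60.4 CPM in early and 37.4, 42.3, 42.7 and 26.3 CPM in late WT. Its log2 fold change was -0.57 (SE 0.22; edgeR adjusted p = 0.12), as large as that of Tsc1 with a larger error. For the complex subunits, the log2 fold change was -0.33 for Mtor (95% interval -0.79 to 0.12), -0.01 for Rptor (-0.36 to 0.35), -0.10 for Rictor (-0.69 to 0.50) and 0.25 for Mlst8 (-0.12 to 0.61). Akt1s1 had 0.15 (95% interval -0.33 to 0.63), with early libraries at 147, 75.3, 124 and 78.7 CPM. The 2 low values belonged to the same female libraries that were low in Rheb. Without that pair, the log2 fold change was -0.41 for Eif4ebp1 (adjusted p = 0.093), -0.44 for Irs1, -0.39 for Mtor, -0.09 for Rptor, -0.01 for Rictor, 0.32 for Mlst8 and -0.18 for Tsc2, none of which passed.

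The passage comparison was repeated in WT MEFs of the S6K1/S6K2 set. None of the 10 members passed by edgeR, against 13.2% of all genes. An unadjusted p under 0.05 was found for 2 members (Rptor and Rheb), beside 4457 of all 14365 genes tested. By DESeq2 1 member (Rptor) passed, beside 2769 genes in all. The median log2 fold change of the members was -0.12, beside 0.01 over all genes. Rptor was at 26.6, 29.3, 20.7 and 22.8 CPM in early WT libraries 1 to 4 and at 16.6, 16.5, 14.3 and 22.1 CPM in late WT. Late library 4 lay inside the early range and the other 3 below it, and the log2 fold change was -0.49 (SE 0.17; edgeR adjusted p = 0.076). Within females (1 late, 2 early) the log2 difference of means was -0.16 and within males (3 late, 2 early) -0.65. Rptor passed without late WT library 4, at -0.64 (adjusted p = 0.028), and its adjusted p ran from 0.028 to 0.199 over the alternatives.

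Rheb was at 125, 119, 152 and 161 CPM in early and 156, 173, 150 and 175 CPM in late WT of the S6K1/S6K2 set. The ranges overlapped, with a log2 fold change of 0.26 (SE 0.12; edgeR adjusted p = 0.155) and differences of 0.31 within females and 0.24 within males. Tsc1 had a log2 fold change of -0.12 (95% interval -0.52 to 0.27). Mlst8 was the 1 member that did not overlap, at 14.64 to 17.5 CPM in early and 10.9 to 14.58 CPM in late WT, against 20.3% of all genes. The lowest early and the highest late library were thus nearly level. Mlst8 had a log2 fold change of -0.23 (SE 0.14; edgeR adjusted p = 0.31). The other members had log2 fold changes of -0.39 (Irs1) to 0.04 (Akt1s1), none of which passed.

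The difference of the passage effect between the MEF sets was tested as an interaction in a fit of all 22 libraries and 14886 genes. None of the 10 members passed, against 0.712% of all genes. By unadjusted p, 2 members (Rptor and Mlst8) were under 0.05, beside 1421 of all 14886 genes, and none passed by DESeq2. The difference, S6K1/S6K2 set minus S6K1 set, was -0.52 for Rptor and -0.51 for Mlst8 on the log2 scale. Both were negative in 23 of 23 alternatives and passed in 0. The passage effect on Rheb was smaller in the S6K1/S6K2 set by 0.51 on the log2 scale (95% interval -1.03 to 0.01; edgeR adjusted p = 0.53), and that on Tsc1 differed by 0.42 (95% interval -0.09 to 0.93; adjusted p = 0.61). A call for Rheb in 1 set and not the other was therefore not a tested difference between the sets. With early WT 1 and 3 of the S6K1 set left out, the Rheb interaction was -0.96 (adjusted p = 0.0093), and with early WT 2 and 4 left out it was -0.17 (adjusted p = 0.96). The size of this value thus depended on which early libraries entered the fit.

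S6K1 deletion was compared with WT at late passage in the S6K1 set. None of the 10 members passed by edgeR, against 0.0425% of all genes, and none passed by DESeq2. An unadjusted p under 0.05 was found for none of them, beside 1499 of all 14132 genes. None of the members separated KO from WT without overlap, against 13.2% of all genes. Their log2 fold changes had a median of 0.13, beside -0.01 over all genes. The log2 fold changes ran from -0.26 for Mlst8 (95% interval -0.65 to 0.13) to 0.43 for Rictor (95% interval -0.20 to 1.07). Rictor was at 30.5, 23.5, 19.5 and 49.1 CPM in late WT libraries 1 to 4 and at 38.0, 37.3 and 48.9 CPM in KO. WT library 4 exceeded every KO library, and the other 3 WT libraries lay below them.

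Rheb was at 219, 172 and 215 CPM in KO, beside 167 to 227 CPM in late WT, with a log2 fold change of 0.07 (95% interval -0.43 to 0.57). Tsc1 was at 13.3, 12.5 and 10.5 CPM, beside 12.2 to 14.0 CPM, with -0.15 (95% interval -0.56 to 0.26). Mtor had 0.13 (95% interval -0.36 to 0.62) and Rptor 0.12 (-0.26 to 0.51). Irs1, the target of S6K1 feedback, was at 29.5, 58.5 and 36.1 CPM in KO and had a log2 fold change of 0.15 (95% interval -0.37 to 0.67). KO 2 lay above the WT range of 26.3 to 42.7 CPM and the other KO libraries inside it. All KO libraries were male and 3 of 4 WT libraries female. With the Y-linked covariate the sign turned for Rheb (-0.36), Akt1s1 (-0.32), Tsc2 (-0.13) and Rptor (-0.06), and none of these passed. Within males (3 KO, 1 WT), the log2 difference of means was 1.07 for Rictor, 0.18 for Eif4ebp1 and 0.13 for Mtor. It was -0.32 for Mlst8, -0.22 for Tsc1, -0.18 for Rheb, -0.16 for Tsc2, -0.13 for Akt1s1, -0.11 for Irs1 and -0.05 for Rptor. The male WT library was the lowest of all 22 libraries in Rictor. The late WT libraries are shared with the passage comparison of this set.

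The DKO was compared with late WT of the S6K1/S6K2 set, whose late WT libraries are likewise shared with the passage comparison. None of the 10 members passed by edgeR, against 4.78% of all genes, of which 0.821% were higher and 3.95% lower in DKO. Of the members, 2 (Irs1 and Eif4ebp1) had an unadjusted p under 0.05, beside 2643 of all 14365 genes tested. By DESeq2 1 member (Irs1) passed, beside 1172 genes in all. The median log2 fold change of the members was 0.05, beside -0.01 over all genes.

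Irs1 was at 47.9, 79.4 and 98.2 CPM in DKO libraries 1 to 3. In late WT libraries 1 to 4 it was at 57.3, 31.5, 35.7 and 19.3 CPM. DKO 2 and 3 lay above every WT library, and DKO 1 lay below WT library 1. The mean was 75.1 ± 25.4 CPM (SD, n = 3) in DKO and 36.0 ± 15.8 CPM (SD, n = 4) in WT, with a log2 fold change of 1.05 (SE 0.36; 95% interval 0.27 to 1.83; edgeR adjusted p = 0.14). DESeq2 gave 1.07 (adjusted p = 0.039). Without WT library 1, edgeR gave 1.38 (adjusted p = 0.035), and without DKO 3 it gave 0.81 (adjusted p = 0.35), so the call depended on the tool and the library. The log2 difference of means was 1.83 within females (2 DKO, 1 WT) and 0.98 within males (1 DKO, 3 WT).

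Eif4ebp1 was at 197, 140 and 107 CPM in DKO libraries 1 to 3. In late WT libraries 1 to 4 it was at 192, 226, 237 and 191 CPM. DKO 2 and 3, the libraries highest in Irs1, were the lowest 2 of all 22 libraries, and DKO 1 lay inside the WT range. The log2 fold change was -0.53 (SE 0.18; 95% interval -0.93 to -0.13; edgeR adjusted p = 0.14), and without DKO 1 it was -0.78 (adjusted p = 0.024). With all libraries it did not pass by edgeR or by DESeq2 (adjusted p = 0.105).

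Rictor was the 1 member whose DKO and WT libraries did not overlap, against 16.4% of all genes. It was at 54.4, 54.6 and 58.3 CPM in DKO and at 53.6, 21.7, 42.7 and 42.7 CPM in late WT. WT library 1 came within 1 CPM of DKO 1 and 2, and the log2 fold change was 0.46 (SE 0.25; edgeR adjusted p = 0.36). Mtor was at 13.1, 17.3 and 25.5 CPM in DKO and 24.1, 24.8, 21.7 and 30.5 CPM in WT, with a log2 fold change of -0.45 (95% interval -0.91 to 0.01; edgeR adjusted p = 0.28). DKO 3 lay inside the WT range. Rheb had a log2 fold change of 0.04 (95% interval -0.24 to 0.32), Tsc1 -0.02 (-0.44 to 0.41), Tsc2 0.07 (-0.28 to 0.41), Mlst8 0.12 (-0.22 to 0.46), Rptor 0.18 (-0.22 to 0.58) and Akt1s1 -0.18 (-0.50 to 0.14).

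**Figure D4:**
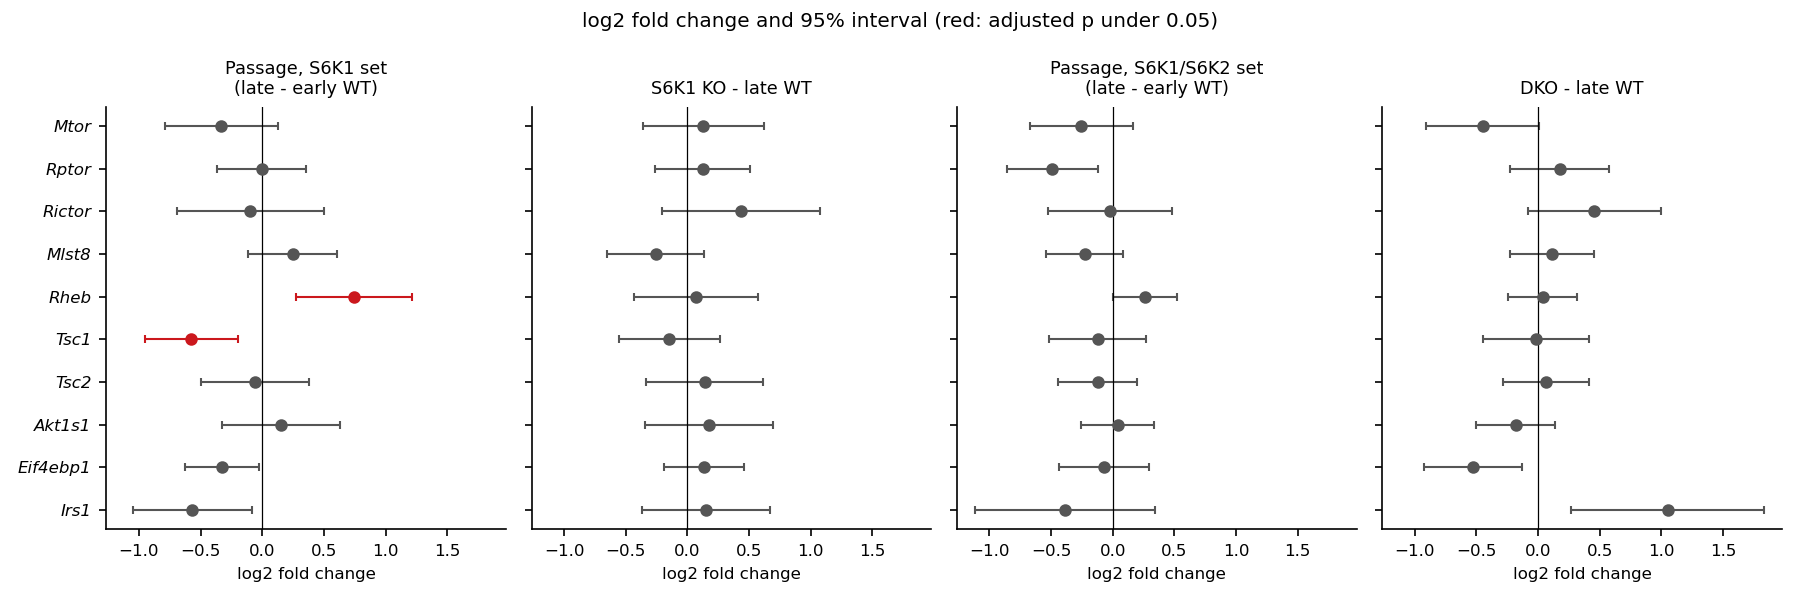
The log2 fold change (x axis) of the 10 genes in 4 comparisons, with 95% intervals; red marks an adjusted p under 0.05. Rheb and Tsc1 in the passage comparison of the S6K1 set are the 2 red points, and the widest interval is that of Irs1 in DKO.

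Whether deletion of both kinases differed from deletion of S6K1 alone was tested as an interaction over all 22 libraries. None of the 10 members passed, against 0.00672% of all genes, and none passed by DESeq2. An unadjusted p under 0.05 was found for 1 member (Eif4ebp1), beside 1626 of all 14886 genes. The largest differences were 0.91 for Irs1 (95% interval -0.02 to 1.84; edgeR adjusted p = 0.47), -0.65 for Eif4ebp1 (-1.14 to -0.16; 0.35) and -0.56 for Mtor (-1.22 to 0.09; 0.53). The interval included 0 for every member but Eif4ebp1, as for Rheb (-0.58 to 0.54) and Tsc2 (-0.63 to 0.51). The knockouts were made in different MEF sets, so set and genotype cannot be told apart in this test.

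The other genes of the pathway were taken from 6 lists, 84 genes in all, of which 83 passed the filter on low counts (Eif4ebp3 did not). With passage in the S6K1 set 4 rose and 3 fell, which is 8.43% of the 83, beside 12.9% of all genes. With passage in the S6K1/S6K2 set 10 rose, against 8.28% of all genes, and 4 fell, against 4.89%. In DKO 1 rose, against 0.821% of all genes, and 2 fell, against 3.95%. In KO 0 of 83 passed by edgeR or DESeq2, and 6 had an unadjusted p under 0.05, beside 1499 of all 14132 genes. In the interactions 0 of 83 passed by edgeR or DESeq2. An unadjusted p under 0.05 was found there for 9 (passage), beside 1421 of all 14886 genes, and for 5 (genotype), beside 1626.

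The list of lysosomal amino acid sensing held 30 genes, among them the Ragulator scaffold, the Rag GTPases and the GATOR, SESTRIN and CASTOR proteins that signal amino acids to mTORC1. With passage in the S6K1 set 2 of 30 rose and 1 fell, with a median log2 fold change of 0.07. Sesn1, a sestrin that restrains mTORC1 and is a p53 target, was at 14.3, 14.3, 16.5 and 10.7 CPM in early and 30.1, 29.0, 42.9 and 24.5 CPM in late WT, with no overlap. Its log2 fold change was 1.18 (SE 0.20; edgeR adjusted p = 0.0024). It passed in every alternative for that comparison, including without early libraries 2 and 4 (1.03; adjusted p = 0.021). Lamtor1, the Ragulator subunit that anchors the complex to the lysosome, rose by 0.82 on the log2 scale (SE 0.20; adjusted p = 0.020) in the S6K1 set and by 0.46 (SE 0.12; adjusted p = 0.029) in the S6K1/S6K2 set. It was at 49.7 and 52.7 CPM in early libraries 2 and 4 and at 84.7 and 88.7 CPM in 1 and 3, and without the first pair its log2 fold change in the S6K1 set was 0.49 (adjusted p = 0.066). Castor1, an arginine sensor, had -0.51 (SE 0.15; adjusted p = 0.046), a call that was lost without early libraries 2 and 4 (-0.49; adjusted p = 0.088) and without 1 and 3 (-0.52; adjusted p = 0.054).

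In the S6K1/S6K2 set 4 of these 30 genes rose with passage and 2 fell, with a median of 0.02. That is 20.0% of the list, beside 13.2% of all genes. Besides Lamtor1, the genes that rose were Bmt2, also known as Samtor, a sensor of S-adenosylmethionine (0.49, SE 0.13; edgeR adjusted p = 0.025), Lamtor2 (0.72, SE 0.20; 0.033) and Rragd, a Rag GTPase (0.91, SE 0.26; 0.041), which the rule for named genes left out, which was added after its values were seen and for which no alternative was run. Kptn, which belongs to a complex that holds GATOR1 at the lysosome, fell (-0.60, SE 0.17; adjusted p = 0.037). In DKO Sesn3 rose, at 93.2, 91.0 and 94.0 CPM against 67.2, 70.4, 55.9 and 49.2 CPM in late WT. Its log2 fold change was 0.60 (SE 0.13; edgeR adjusted p = 0.024), with no overlap.

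Of 17 genes of insulin, IGF and PI3K-AKT input, 1 rose and 1 fell with passage in the S6K1 set, which is 11.8%, beside 12.9% of all genes. Pik3cd, the PI3-kinase catalytic subunit found mainly in leukocytes, was at 4.45, 2.99, 4.19 and 5.55 CPM in early and 17.7, 8.32, 10.1 and 9.94 CPM in late WT. Its log2 fold change was 1.42 (SE 0.26; edgeR adjusted p = 0.0043), or 1.41 (0.021) without early libraries 2 and 4, and in the S6K1/S6K2 set it was 1.39 (SE 0.18; 0.00090). In DKO Pik3cd was at 3.29, 2.42 and 3.22 CPM, below every early WT library of that set (lowest 3.76 CPM), with a log2 fold change of -1.97 (SE 0.21; 0.0012) against late WT. All 16 macrophage markers rose with passage in both sets and 15 of 16 were lower in DKO, with medians of 3.04, 2.54 and -2.44 on the log2 scale, so Pik3cd moved with them in each comparison, and their part in its change was not tested. Pik3cb, a more widely used catalytic subunit, was at 8.87, 4.46 and 6.19 CPM in DKO and 12.4 to 15.8 CPM in late WT, with -1.09 (SE 0.23; 0.018). DESeq2, but not edgeR, also called Pik3cb with passage in both sets. Its raw counts in the S6K1 set were 68 to 140 in early and 85 to 187 in late WT. In the S6K1/S6K2 set they were 135 to 161 in early and 186 to 247 in late WT. The part of the macrophage markers in these changes was not tested. Irs2, the paralog of Irs1, fell with passage in the S6K1 set by 0.57 on the log2 scale (SE 0.16; 0.031), and had -0.41 (0.145) without early libraries 2 and 4. In the S6K1/S6K2 set the log2 fold change of Irs2 was 0.28 (95% interval -0.16 to 0.71), and the difference between the sets was 0.82 (95% interval 0.29 to 1.35; edgeR adjusted p = 0.22). Pik3ca rose in the S6K1/S6K2 set by 0.54 (SE 0.14; 0.023).

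Among 11 genes of energy and stress input, Ddit4 fell with passage in both sets. Ddit4 encodes REDD1, a stress-induced activator of the TSC complex. It was at 50.5, 42.5, 43.9 and 42.9 CPM in early and 26.4, 29.4, 31.8 and 27.9 CPM in late WT of the S6K1 set, with a log2 fold change of -0.64 (SE 0.12; edgeR adjusted p = 0.0038). In the S6K1/S6K2 set it was at 66.1, 60.3, 53.4 and 49.6 CPM in early and 36.2, 30.2, 34.1 and 38.3 CPM in late WT, with -0.70 (SE 0.12; 0.0032). Early and late libraries were apart in both sets, and the call held in every alternative, including without early libraries 2 and 4 of the S6K1 set (-0.71; adjusted p = 0.0074). No other gene of the list passed by edgeR in either set, and DESeq2 also called Stk11, the kinase upstream of AMPK, with passage in the S6K1 set (edgeR log2 fold change 0.40; adjusted p = 0.064).

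Among 9 other direct targets of the mTOR complexes, Maf1, a repressor of RNA polymerase III, rose with passage by 0.52 (SE 0.13; edgeR adjusted p = 0.020) in the S6K1 set, or 0.44 (0.038) without early libraries 2 and 4, and by 0.53 (SE 0.11; 0.011) in the S6K1/S6K2 set on the log2 scale. In the latter, Lpin1, a phosphatidate phosphatase, rose by 1.18 (SE 0.16; 0.00095) and Sgk1, a kinase activated by mTORC2, by 0.94 (SE 0.22; 0.017). With passage in the S6K1 set the log2 fold change of Sgk1 was -0.42 (95% interval -1.19 to 0.35), and the difference between the sets was 1.33 (95% interval 0.39 to 2.26; edgeR adjusted p = 0.29). Lpin1 was at 13.9 to 17.2 CPM in early and 29.0 to 36.7 CPM in late WT there. In early WT of the S6K1 set Lpin1 was at 11.1, 28.7, 16.9 and 44.9 CPM, with the 2 high values again in libraries 2 and 4. Of 8 further complex subunits and assembly factors, Prr5, an mTORC2 subunit also called Protor-1, fell in the S6K1/S6K2 set by 0.61 (SE 0.15; 0.021), and the other 7 did not pass. Of 8 tested 4E-BP paralogs and cap-binding genes, Pdcd4, an inhibitor of the helicase eIF4A, rose in that set by 0.48 (SE 0.13; 0.036), as edgeR adjusted p in each case.

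Many of these pathway calls were lost under some alternative, always with the direction kept. For passage in the S6K1/S6K2 set, Pdcd4 passed in 4 of 15 alternatives, Kptn in 8, Bmt2, Lamtor1 and Lamtor2 in 9 each, Pik3ca in 10, and Prr5 and Sgk1 in 12 each. With 1 library left out, Pdcd4 passed without late WT 3 alone. Kptn passed without early WT 4 or late WT 4, and Bmt2 without early WT 4 or late WT 3 or 4. Lamtor1, Lamtor2 and Pik3ca each lost the call without early WT 1 or 2 or late WT 2 or 3. Prr5 lost it without early WT 2 or 3, and Sgk1 without early WT 1 or late WT 3. In DKO, Sesn3 passed in 9 of 14 alternatives and lost the call without late WT 3 or DKO 2 or 3, with an adjusted p of up to 0.124 by edgeR. Pik3cb passed in 12 of 14 and lost the call without DKO 2 or 3. For passage in the S6K1 set, Castor1 passed in 4 of 17 alternatives, Irs2 in 9, Lamtor1 in 14 and Maf1 in 15. Castor1 passed without early WT 2 or 3, Irs2 lost the call without early WT 2 or 4 or late WT 1, 2 or 3, and Lamtor1 lost it without early WT 4 or late WT 1. Pik3cd passed in every alternative in each of its comparisons, as did Lpin1 and Maf1 with passage in the S6K1/S6K2 set.

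**Figure D5:**
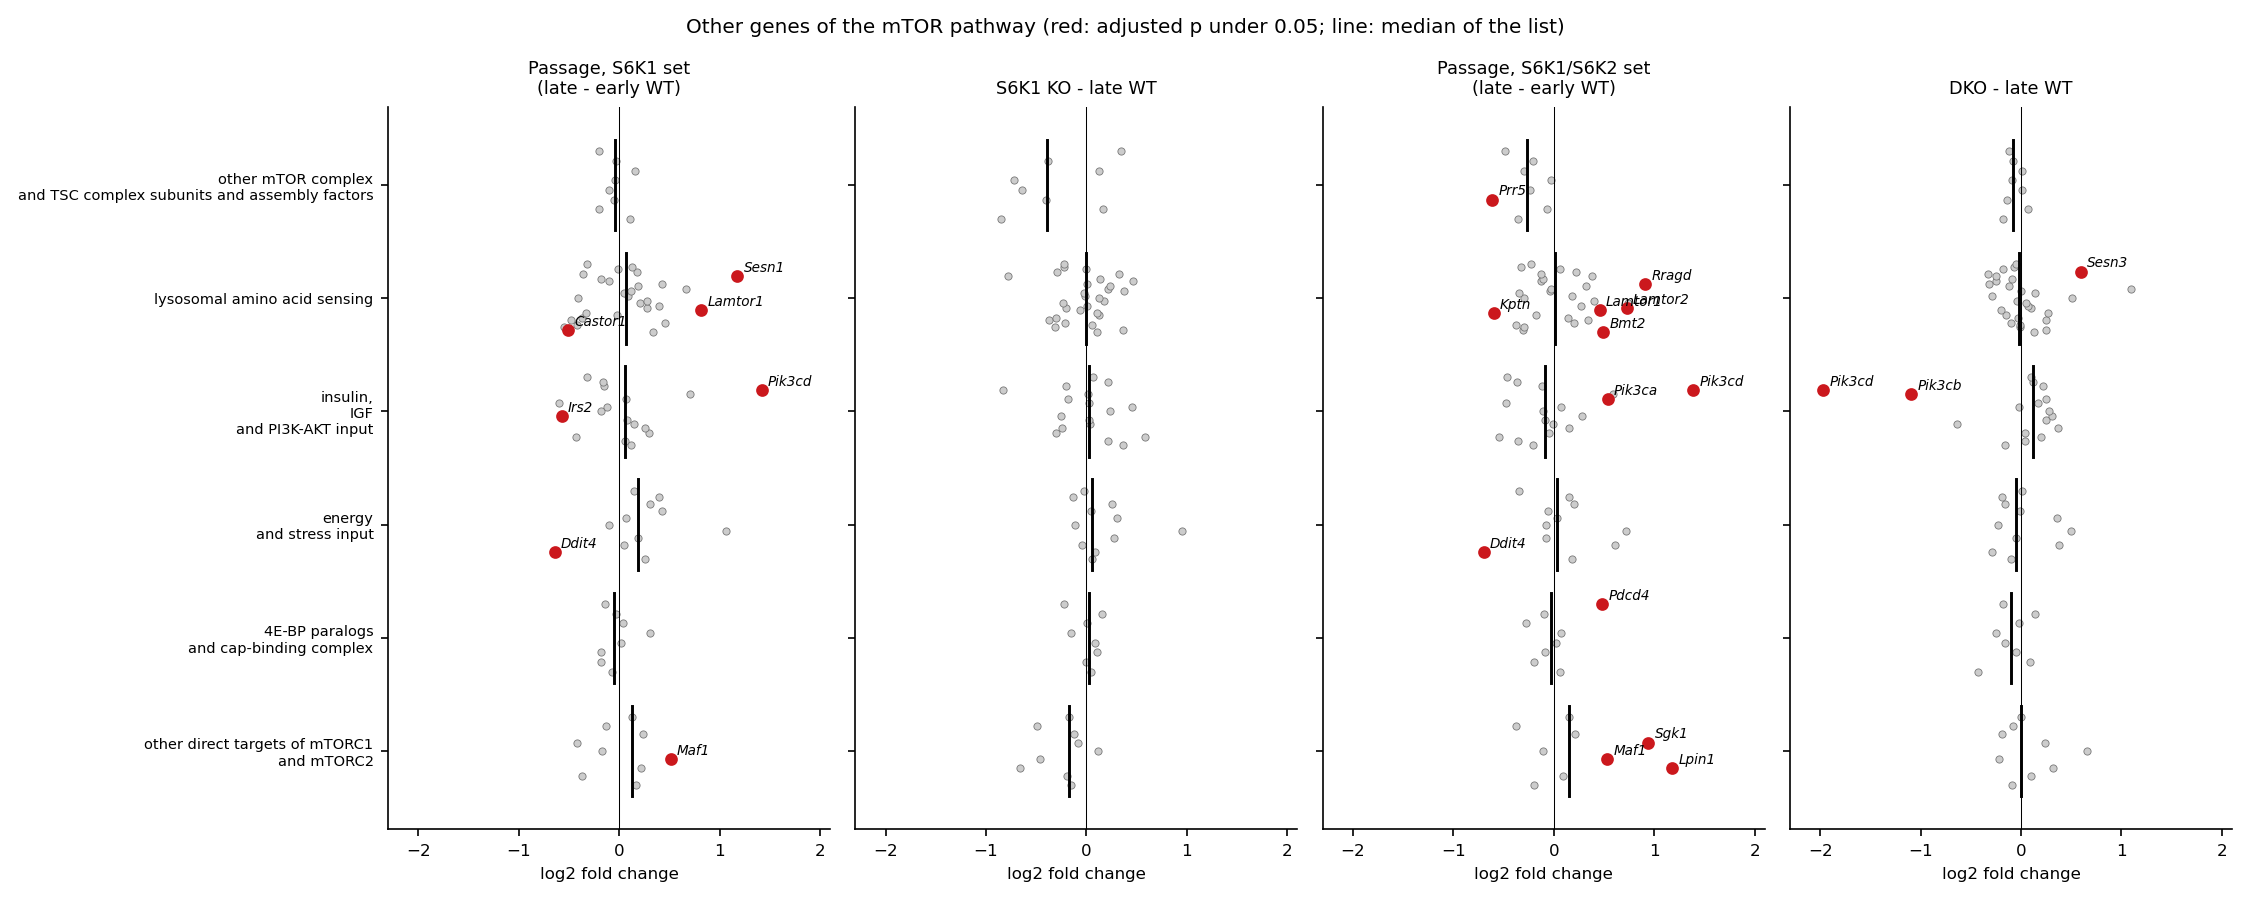
The log2 fold change (x axis) of the tested pathway genes, 1 of the 83 left out, in 6 lists (y axis) and 4 comparisons; red points with names have an adjusted p under 0.05 and lines are list medians. Calls are spread over the lists with passage, none falls in KO, and 3 fall in DKO.

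Genes whose pattern was most like that of a member were found by Pearson's r of log2 CPM, centred within each MEF set, over 22 libraries and 8999 genes with a symbol and a mean of at least 10 CPM. These libraries share passage, genotype and the split of the early libraries, and r is given as a description. The highest r were those of Rheb with Adprh (0.94) and Sbds (0.93) and of Akt1s1 with Vat1 (0.93) and Tmem5 (0.92). Rptor was most like Arhgef17 (0.91) and Sh3pxd2a (0.87), and Mtor most like Clasp1 (0.90) and Nup205 (0.89). Tsc1 was most like Prrc2a (0.87) and Sfswap (0.85), and Tsc2 most like Fbxo42 (0.87) and Pi4ka (0.85). Eif4ebp1 was most like Tmsb10 (0.87) and Mrps30 (0.86), Irs1 most like 6330403K07Rik (0.88) and Abi3bp (0.87), and Rictor most like Fzd1 (0.82) and Foxc1 (0.82). Mlst8, the member that varied least, had the lowest values, with Upf1 (0.71) and Neat1 (0.68). No member was among the 2 nearest genes of another member.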

How the data were processed

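Count values for 55401 gene identifiers in 22 libraries were deposited by the authors as raw, unnormalised counts per gene, from stranded mRNA libraries sequenced single-end. The submitters' processing notes name CASAVA, STAR 2.7.1a, DESeq2 1.28.1 and mm10, whereas the methods of the study describe another aligner and mm9; 22812 identifiers are absent from the mm9 annotation used here, so mm10 was taken. Counts were tested with edgeR 4.0.16 in R 4.3.3 (filterByExpr, TMM, robust quasi-likelihood F test), with 1 model of the 3 groups per MEF set and 1 of all 6 groups for interactions, and p-values were adjusted by Benjamini-Hochberg over all genes tested; the script was tested on simulated data. Library totals of 10742454 to 17314832 limit precision, and 3 counts were taken as the floor of detection.

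Alternatives were DESeq2 1.42.0, RLE scaling, library totals alone, no filter, other sets of groups, a Y-linked covariate and each library left out. Leaving out 2 early libraries together was added after seeing the data. The members and lists were chosen with earlier results of these data known. Named pathway genes were those passing 0.05, at most 3 per list and direction by p, in each comparison. Promoters came from RefSeq (GRCm38.p6), 9 of 10 members matched. No column of the authors' own comparisons was used. The values of 1 listed pathway gene are not reported here, although list counts and medians include it.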

Additional observations from a re-analysis of the deposited data

Results flagged for a closer look

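Of 120 sets of 4 libraries checked over 30 genes, 5 held a library far from the other 3 by Dixon's criterion, which chance alone gives in about 1 of 20 sets. Among the members, Mlst8 was at 10.9 CPM in late WT library 2 of the S6K1/S6K2 set, with the others at 14.0 to 14.6 CPM, and Eif4ebp1 was at 209 CPM in early WT library 4 of the S6K1 set, with the others at 258 to 267 CPM. Ddit4 was at 50.5 CPM in early WT library 1 of the S6K1 set (others 42.5 to 43.9 CPM). Lamtor1 was at 112 CPM in late WT library 2 of the S6K1/S6K2 set (others 92.5 to 94.6 CPM). Lpin1 was at 41.7 CPM in late WT library 2 of the S6K1 set (others 24.7 to 26.9 CPM).

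The genotype effect differed between the MEF sets for Rps6kb2, by -4.24 on the log2 scale (edgeR adjusted p = 4.0e-06), which is the gene deleted in DKO and intact in KO.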

How the results depend on the processing

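No paired analysis was possible because the labels give each library a code of its own and no replicate number shared between groups. The counts of members passing were within 1.5 times of the values in the report in 33 of 42 settings with all or most libraries and in 50 of 60 with 1 library left out. For passage in the S6K1 set 1 member passed under RLE scaling and 1 without the filter on low counts, and 0 passed under library totals alone, with the 2 groups fitted alone and without early WT 2 and 4, against 2 in the report; with 1 library left out 0 to 2 passed. For passage in the S6K1/S6K2 set 1 passed by DESeq2 and 1 in the fit of all 6 groups, and 0 to 1 with 1 library left out. In DKO 1 passed by DESeq2 and 0 to 1 with 1 library left out. In the passage interaction 1 passed without early WT 1 and 3 of the S6K1 set. Leaving out these pairs was chosen after seeing the data, and the cause of these changes was not tested. The fits that leave libraries out also hold fewer libraries.

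Log2 values that changed sign were near 0 in most cases, and none of them passed the test in the report. For Rptor with passage in the S6K1 set they were 0.016 under RLE scaling, 0.014 under library totals, 0.070 with the Y-linked covariate, 0.018 by DESeq2, 0.031 with the 2 groups alone and 0.092 without early WT 1 and 3. Tsc2 had 0.050 with the covariate and 0.085 without early WT 1 and 3, and Akt1s1 had -0.20 without early WT 2 and 4. With the covariate in KO they were -0.063 for Rptor, -0.36 for Rheb, -0.13 for Tsc2 and -0.32 for Akt1s1. Rictor had 0.020 with the covariate and Akt1s1 -0.032 under library totals for passage in the S6K1/S6K2 set. In DKO Rheb had -0.0034 with the covariate, and Tsc1 had 0.0033 under RLE scaling and 0.0028 by DESeq2. In the passage interaction Mtor had -0.025 and Rictor -0.026 under library totals, Mtor -0.019 without early WT 1 and 3, Rictor -0.037, Tsc2 0.030 and Akt1s1 0.21 without early WT 2 and 4, and Irs1 -0.0074 with the covariate. In the genotype interaction with the covariate Rictor had -0.27, Rheb 0.16, Tsc1 -0.0038, Tsc2 0.17 and Rps6kb1 -0.21.

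With 1 library left out, the sign also changed for the following values, whose ranges are given. They were -0.13 to 0.11 for Rptor, -0.42 to 0.11 for Rictor and -0.20 to 0.055 for Tsc2 with passage in the S6K1 set, and -0.0063 to 0.16 for Rheb and -0.20 to 0.33 for Irs1 in KO. They were -0.21 to 0.17 for Rictor and -0.059 to 0.11 for Akt1s1 with passage in the S6K1/S6K2 set. In DKO they were -0.013 to 0.20 for Mlst8, -0.0092 to 0.086 for Rheb, -0.12 to 0.15 for Tsc1 and -0.11 to 0.21 for Tsc2. In the passage interaction they were -0.091 to 0.21 for Mtor, -0.15 to 0.36 for Rictor, -0.18 to 0.041 for Tsc2 and -0.17 to 0.36 for Irs1, and in the genotype interaction -0.082 to 0.20 for Rptor, -0.28 to 0.21 for Rictor, -0.11 to 0.039 for Rheb, -0.24 to 0.096 for Tsc2 and -0.14 to 0.17 for Rps6kb1.

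Counts over all genes differed by more than 1.5 times in these settings. Passage in the S6K1 set gave 3284 genes with the covariate and 3214 without early WT 1 and 3, against 1827. KO gave 250 genes by DESeq2, 43 without the filter, 25 with the covariate and 16 in the fit of all 6 groups, against 6. DKO gave 1172 genes by DESeq2, of which 28.9% were higher, against 686, of which 17.2% were higher. The passage interaction gave 218 genes by DESeq2 and 1324 without early WT 1 and 3, against 106, and the genotype interaction 63 by DESeq2 and 3 without the filter, against 1. With 1 library left out, the genes passing ran from 1223 to 1749 for passage in the S6K1 set, from 2 to 9 in KO, from 885 (without early WT 1) to 2247 for passage in the S6K1/S6K2 set, from 97 (without DKO 2) to 783 in DKO, from 78 to 118 in the passage interaction and from 1 to 5 in the genotype interaction.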
